A study of Mus musculus with 30 samples.

Results

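Creatine kinases and the other genes that hold and move high-energy phosphate in muscle were followed through the making of mouse myotubes. Their 10 members were chosen by name, out of 30205 genes: the creatine kinases Ckm, Ckb, Ckmt1 and Ckmt2, the creatine transporter Slc6a8, the creatine-synthesis enzymes Gatm and Gamt, the adenylate kinase Ak1, and the AMP deaminases Ampd1 and Ampd3. RNA was sequenced from 30 libraries, 3 in each of 10 groups. C2C12, a mouse myoblast line, was sampled at day 0 (D0) on plastic and at day 4 (D4) and day 7 (D7) of differentiation on plastic, on unpatterned gelatin and on gelatin molded with grooves (patterned gelatin), which gives 21 libraries. Primary mouse myoblasts, prepared from hindlimb muscle of young adult C57/Bl6J mice and carrying no labelled allele or agent, were sampled at D0 on plastic and at D4 and D7 on patterned gelatin, which gives 9 libraries. In the primary cells day 0 and plastic came together, so the day and the substrate cannot be told apart there. The labels give plastic for these D0 cells, and the methods describe their growth on dishes coated with matrix. The study's methods describe a brief trypsin step that enriches myotubes at D4 and D7, and more than one batch of C2C12 cells. The labels give no batch, and all C2C12 libraries come from a line rather than from separate animals.

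Creatine kinase moves a phosphate between ATP and creatine, so that phosphocreatine can refill ATP while a muscle contracts. Ckm encodes the muscle form and Ckb the brain form of the cytosolic enzyme, while Ckmt2 encodes the sarcomeric and Ckmt1 the ubiquitous form found in mitochondria. Adenylate kinase turns ADP pairs into ATP and AMP, and AMP deaminase removes the AMP as IMP, the entry step of the purine nucleotide cycle. A switch from the brain to the muscle form of creatine kinase is a long-known mark of myoblast differentiation.

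Library totals ran from 13.1 to 59.4 M estimated counts (M, mega), with a median of 27.3 M. The 8 myotube markers (Myog, Myh3, Myh8, Acta1, Tnnt3, Mylpf, Ttn and Mymk) summed to 910 to 1330 TPM in C2C12 at D0 and to 18736 to 26248 TPM in C2C12 at D4 and D7, and none was at 0 in any group. TPM, the abundance unit of the files, is corrected for transcript length and serves here to compare genes. Tests were made on counts with TMM scaling, because the median gene with at least 1 TPM moved by -0.20 (log2 TPM) from D0 to D4 on plastic and by 0.21 from D4 to D7 on plastic, while the median TMM-scaled change of all tested genes lay between -0.04 and 0.01. Markers of adipocytes, endothelium, macrophages and Schwann cells summed to at most 13.7 TPM per list in any library, those of neurons to 3.70 to 113 TPM, and those of smooth muscle, a list whose Acta2 is known from cultured myoblasts too, to 558 to 2371 TPM. Primary cultures 1, 2 and 3 here name libraries by replicate number. The labels do not follow a culture through the days. Primary culture 3 stood apart from primary cultures 1 and 2. Its myotube marker sum was 13680 TPM at D7, against 28686 and 24756 TPM in cultures 1 and 2, and results on primary cells are given with and without it. Separate cultures for each condition are described in the study's methods, but the labels do not tie a library to a culture, so p-values measure the spread between these libraries.

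The 10 genes lie at these GRCm38 (mm10) positions. Ckm (ENSMUSG00000030399) spans chr7:19404776-19422841 on the plus strand and Ckb (ENSMUSG00000001270) chr12:111669361-111672338 on the minus strand. Ckmt1 (ENSMUSG00000000308) spans chr2:121357714-121363737 on the plus strand and Ckmt2 (ENSMUSG00000021622) chr13:91853387-91876885 on the minus strand. Slc6a8 (ENSMUSG00000019558) spans chrX:73673150-73682502 on the plus strand. Gamt (ENSMUSG00000020150) lies at chr10:80258151-80261012 and Gatm (ENSMUSG00000027199) at chr2:122594467-122611303, both on the minus strand. Ak1 (ENSMUSG00000026817) spans chr2:32621758-32635058, Ampd1 (ENSMUSG00000070385) chr3:103074014-103099720 and Ampd3 (ENSMUSG00000005686) chr7:110768206-110812405, all on the plus strand.

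RefSeq promoter windows of GRCm38.p6, from 250 bases before a start site to 50 after it, were matched for 8 of the 10 genes, in 14 windows. Slc6a8 and Ampd1 were not matched. The windows shown belong to the genes that carry the results: the cytosolic creatine kinases, whose balance turned over, Ckmt2, which differed between substrates, and a pair of Ak1 start sites whose transcripts behaved differently. Capitals mark E-boxes (CANNTG, the core of the sites of myogenic bHLH factors, which reads the same on both strands) and matches to the MEF2 consensus, 10 bases long.
Ckm, chr7:19410844-19411143, plus strand: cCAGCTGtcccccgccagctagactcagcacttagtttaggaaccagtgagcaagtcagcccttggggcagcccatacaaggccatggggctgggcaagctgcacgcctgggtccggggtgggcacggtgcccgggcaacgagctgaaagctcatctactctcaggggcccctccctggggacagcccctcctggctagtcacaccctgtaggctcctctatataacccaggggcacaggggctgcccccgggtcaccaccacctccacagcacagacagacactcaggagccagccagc
Ckb, chr12:111672289-111672588, minus strand: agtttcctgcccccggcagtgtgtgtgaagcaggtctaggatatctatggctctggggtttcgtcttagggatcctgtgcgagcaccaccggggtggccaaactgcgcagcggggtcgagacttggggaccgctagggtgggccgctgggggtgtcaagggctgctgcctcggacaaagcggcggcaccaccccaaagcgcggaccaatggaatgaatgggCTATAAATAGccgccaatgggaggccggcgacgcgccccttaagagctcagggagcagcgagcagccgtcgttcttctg
Ckmt2, chr13:91876836-91877135, minus strand: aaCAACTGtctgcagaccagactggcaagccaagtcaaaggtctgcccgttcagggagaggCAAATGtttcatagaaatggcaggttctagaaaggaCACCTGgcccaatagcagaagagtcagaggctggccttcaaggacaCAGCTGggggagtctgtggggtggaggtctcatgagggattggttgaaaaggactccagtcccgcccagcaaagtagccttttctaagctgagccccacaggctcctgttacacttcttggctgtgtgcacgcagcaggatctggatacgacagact
Ak1, start of Ak1-202, chr2:32625187-32625486, plus strand: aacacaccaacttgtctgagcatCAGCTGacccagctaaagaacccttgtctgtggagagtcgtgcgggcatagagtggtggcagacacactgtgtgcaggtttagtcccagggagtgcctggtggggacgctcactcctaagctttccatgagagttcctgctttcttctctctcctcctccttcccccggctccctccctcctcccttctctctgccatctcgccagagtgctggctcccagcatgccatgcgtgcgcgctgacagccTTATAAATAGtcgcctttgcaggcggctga
Ak1, start near that of Ak1-201, chr2:32629250-32629549, plus strand: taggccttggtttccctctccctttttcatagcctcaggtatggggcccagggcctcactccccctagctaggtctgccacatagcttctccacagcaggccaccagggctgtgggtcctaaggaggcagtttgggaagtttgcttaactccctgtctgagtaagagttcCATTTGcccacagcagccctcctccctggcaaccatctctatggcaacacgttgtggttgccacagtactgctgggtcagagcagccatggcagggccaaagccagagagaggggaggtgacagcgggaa
The Ckmt2 window held 4 E-boxes, those of Ckm and of both Ak1 starts 1 each, and that of Ckb 0. At least 1 E-box was found in 72.3% of all 32851 windows of the table, with a mean of 1.39 a window. A MEF2 match was found in 3.19% of all windows and in 2 of the 14 windows of these genes, Ckb and the Ak1-202 start. In both it overlapped the letters TATAAA, which 13.6% of all windows hold. A CArG box was found in 1.63% of all windows and in a window of Ampd3 alone among these genes. These matches describe letters and were not tied to binding.

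**Figure D1:**
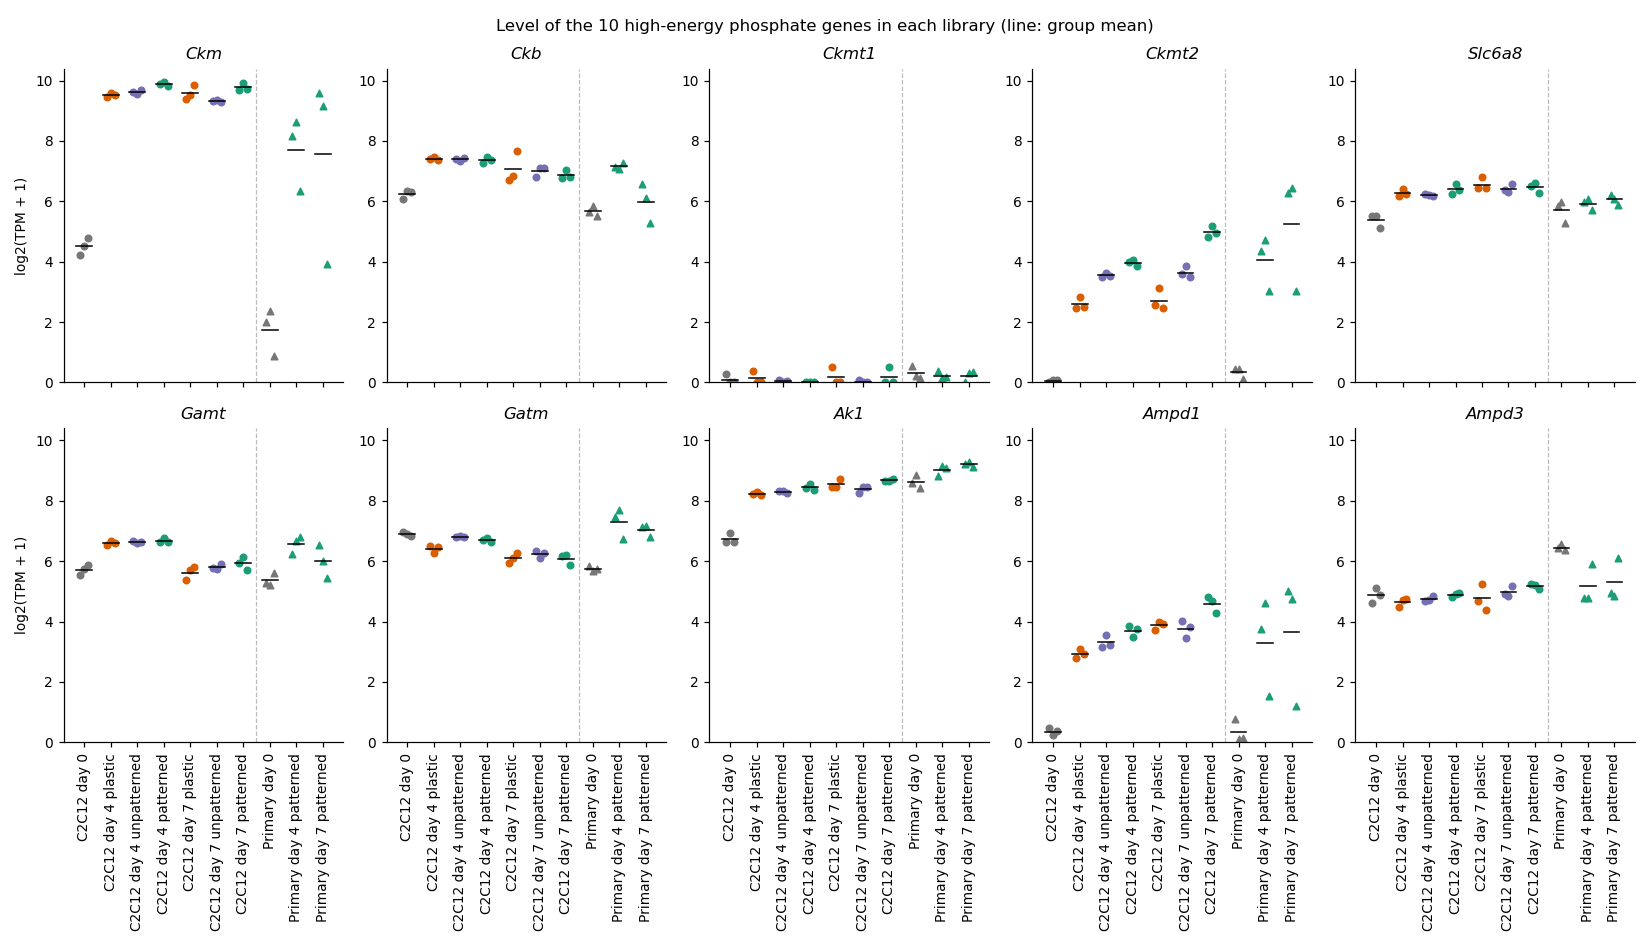
Level of each gene in each library, as log2(TPM + 1), for the 7 C2C12 groups (circles) and the 3 primary groups (triangles), with a line at the group mean of the plotted values. Ckm, Ckmt2 and Ampd1 lay lowest at D0, Ckmt1 stayed near 0, and the triangles of primary culture 3 lay far below the others for Ckm, Ckmt2 and Ampd1 at D7.

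Between D0 and D4 on plastic, most of these genes rose in C2C12 cells. Ckmt2 and Ampd1 were near 0 at D0 and passed the filter on low counts through the later libraries, so they had to differ and are given without a test. Of the other 7 members tested, 5 rose and 1 fell, where 30.2% of all 14844 genes tested rose and 27.7% fell (58.0% in either direction). Ckmt1 did not pass the filter in any fit, and its highest library held 0.47 TPM. The myotube marker sum rose over the same days, from 910 to 1330 TPM to 18736 to 19626 TPM. The trypsin step described for D4 enriches myotubes, and its part in these rises was not tested. In RNA from many cells at once, fewer cells of a type and less RNA per cell cannot be told apart.

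Ckm, the muscle creatine kinase, had 17.8, 22.2 and 26.7 TPM in the D0 libraries and 703, 774 and 739 TPM at D4 on plastic. The groups lay far apart. Its counts rose by log2 5.27 ± 0.16 (SE, 3 libraries a group, adjusted p = 1.9e-15), which is 38.5-fold. Ckm also rose against the myotube markers, from a mean of 203 to 384 TPM per 10000 TPM of marker sum. The other called genes that rose fell on that scale. Their means went from 698 to 88.0 (Ckb), 393 to 40.1 (Slc6a8), 478 to 50.2 (Gamt) and 988 to 156 (Ak1).

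Ckb, the brain form, started above Ckm. It had 66.7, 81.1 and 77.9 TPM at D0 and 168, 177 and 163 TPM at D4 on plastic, with no overlap. Its rise was log2 1.39 ± 0.18 (adjusted p = 1.8e-06). Ckb thus rose 2.62-fold in the same libraries in which Ckm rose 38.5-fold.

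Ckmt2, the sarcomeric mitochondrial form, was barely counted at D0, with 2 estimated counts over the 3 libraries against 441 at D4 on plastic. The ratio of these counts, scaled by library totals, was 147, with a 95% counting interval of 40.4 to 1216 that covers counting error only. In TPM it had 0.00, 0.05 and 0.06 at D0 and 4.59, 6.08 and 4.68 at D4 on plastic.

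The genes of creatine supply moved less and in different directions. Slc6a8, the plasma membrane creatine transporter, had 45.1, 45.0 and 33.7 TPM at D0 and 71.9, 84.5 and 74.8 TPM at D4 on plastic. All D4 libraries were above all D0 libraries, and the rise was log2 1.09 ± 0.08 (adjusted p = 8.2e-10). Gamt, which methylates guanidinoacetate to creatine, had 45.8, 52.5 and 57.4 TPM at D0 and 90.8, 102 and 96.8 TPM at D4 on plastic. It rose by log2 1.14 ± 0.11 (adjusted p = 3.4e-08). Gatm, which makes guanidinoacetate, was the only member that fell, by log2 0.25 (-0.25 ± 0.09, adjusted p = 0.028), from 123, 118 and 114 TPM to 90.6, 76.9 and 86.7 TPM. The Gatm groups did not overlap in TPM, but its call was lost without D4 plastic replicate 2 or 3 or without D0 replicate 1 or 3.

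Ak1, the main cytosolic adenylate kinase of muscle, had 97.6, 121 and 97.9 TPM at D0 and 296, 314 and 291 TPM at D4 on plastic. It rose by log2 1.85 ± 0.09 (adjusted p = 9.3e-13). Ampd1, the muscle AMP deaminase, had 0.37, 0.17 and 0.29 TPM at D0, from 14 estimated counts in all, and 5.95, 7.46 and 6.53 TPM at D4 on plastic. The counting ratio was 35.9 (95% interval 21.3 to 66.0). Ampd3, the form known best from red blood cells, had 23.6, 33.5 and 28.6 TPM at D0 and 21.5, 25.4 and 25.7 TPM at D4 on plastic. These Ampd3 groups overlapped, with a change of log2 0.04 and a 95% interval of -0.28 to 0.36 (adjusted p = 0.83).

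The 4 creatine kinase genes together held 97.6 ± 11.2 TPM (SD, n = 3) in C2C12 at D0 and 913 ± 41.3 TPM at D4 on plastic. Within that sum the Ckm share was 21.01%, 21.5% and 25.5% in the D0 libraries and 80.3%, 80.9% and 81.5% at D4 on plastic, so the order of Ckm and Ckb was reversed in every library. The difference gave p = 0.1 in an exact two-sided permutation test, the smallest p that 3 against 3 allows (adjusted over 15 comparisons, p = 0.15). No such test of 3 against 3 can pass 0.05. Over the 6 C2C12 myotube groups the mean Ckm share stayed between 80.9% and 85.8%.

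**Figure D2:**
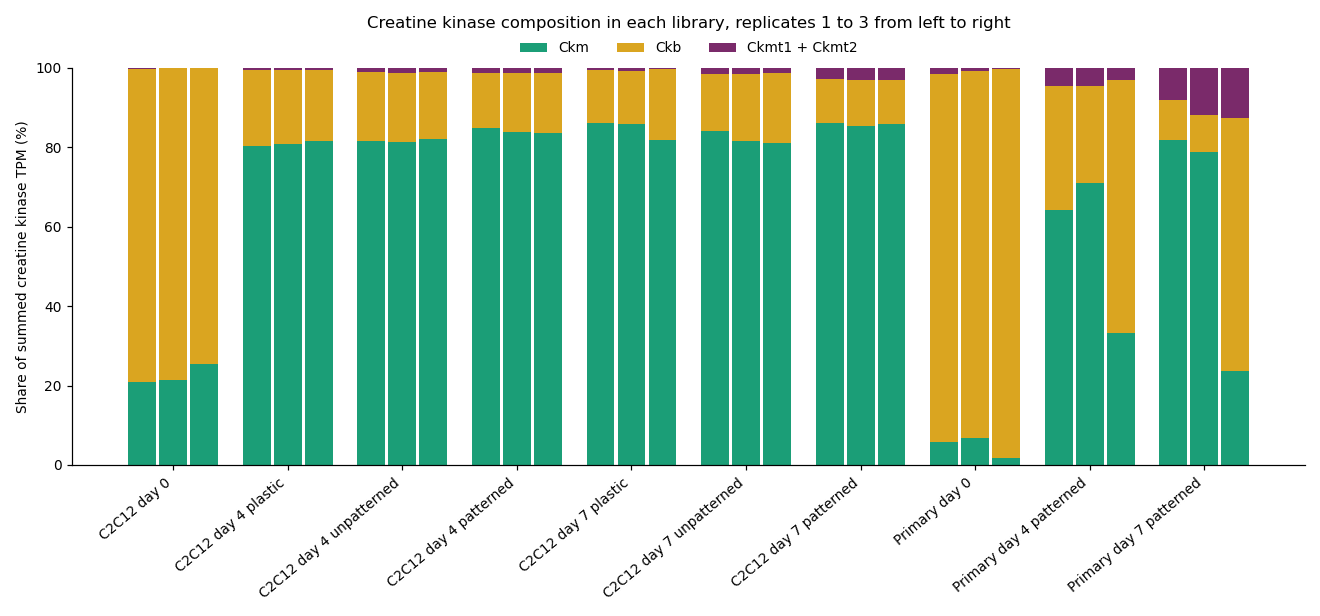
Share of each creatine kinase in their summed TPM, in percent, with 1 bar for each of the 30 libraries. Ckb held most of the sum in all 6 D0 libraries, Ckm held most of it in all 18 C2C12 myotube libraries and in primary cultures 1 and 2, and in primary culture 3 Ckb held most of it at D4 and D7.

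From D4 to D7 the C2C12 members moved less, and the creatine-synthesis genes fell on every substrate. On plastic 3 of 9 members passed the test (1 higher, 2 lower), where 14.8% of all genes did (6.47% higher, 8.37% lower). On unpatterned gelatin 2 of 9 passed, both lower, against 2.92% of all genes (1.62% higher, 1.31% lower). On patterned gelatin 4 of 9 passed (2 higher, 2 lower), against 20.3% of all genes (11.3% higher, 9.03% lower).

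Gamt had 90.8 to 109 TPM in the 9 D4 libraries and 40.9 to 70.2 TPM in the 9 D7 libraries. All D7 libraries lay below all D4 libraries, on every substrate. It fell by log2 1.17 (-1.17 ± 0.11, adjusted p = 7.0e-06) on plastic. On unpatterned gelatin it fell by 0.84 (-0.84 ± 0.11, adjusted p = 0.00027), and on patterned gelatin by 0.66 (-0.66 ± 0.11, adjusted p = 0.0013). Gatm had 76.9 to 112 TPM in the D4 libraries and 57.1 to 80.8 TPM in the D7 libraries, and within each substrate the days did not overlap, though on plastic 76.9 and 76.7 TPM lay close. It fell by log2 0.54 on plastic (adjusted p = 0.0010), 0.61 on unpatterned gelatin (adjusted p = 0.0012) and 0.61 on patterned gelatin (adjusted p = 0.00073).

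Ckmt2 changed with day on patterned gelatin, from 14.9, 15.5 and 13.5 TPM at D4 to 27.5, 35.0 and 29.6 TPM at D7. That rise was log2 1.11 ± 0.15 (adjusted p = 0.00031). On plastic its change was -0.05 (95% interval -0.42 to 0.31), and on unpatterned gelatin 0.09 (-0.25 to 0.42), neither past the test. Ampd1 rose on plastic, by log2 0.73 ± 0.14 (adjusted p = 0.0022), and on patterned gelatin, by 0.89 ± 0.14 (adjusted p = 0.00076). On unpatterned gelatin its change was 0.38 (95% interval 0.09 to 0.68, adjusted p = 0.17). Ckm changed by -0.12, -0.32 and -0.05 on plastic, unpatterned and patterned gelatin, with no adjusted p under 0.24. Ckb changed by -0.48, -0.41 and -0.46, with adjusted p of 0.075, 0.26 and 0.070. On plastic the Ckb libraries of D7 had 103, 114 and 202 TPM, and without the last, replicate 3, the fall of 0.86 was called (-0.86, adjusted p = 0.00017). Slc6a8, Ak1 and Ampd3 did not pass the test between D4 and D7 on any substrate by edgeR, while DESeq2 called Slc6a8 on unpatterned gelatin (0.26, adjusted p = 0.035).

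The substrates were compared in C2C12 to ask what gelatin and grooves change in myotubes of the same day. Ckmt2 gave the largest difference of these genes in all 6 comparisons, and the order of its levels was plastic, then unpatterned, then patterned gelatin on both days. At D4 it had 4.59, 6.08 and 4.68 TPM on plastic, 10.3, 11.3 and 10.5 TPM on unpatterned gelatin and 14.9, 15.5 and 13.5 TPM on patterned gelatin. At D7 it had 4.92, 7.66 and 4.51 TPM on plastic, 10.96, 13.3 and 10.3 TPM on unpatterned gelatin and 27.5, 35.0 and 29.6 TPM on patterned gelatin. On neither day did any of the 3 groups overlap. Comparisons within a day share libraries and are not independent.

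Patterned gelatin against unpatterned gelatin at D7 gave 2 of 9 members, both higher, against 0.546% of all genes (0.397% higher, 0.148% lower). Ckmt2 was higher by log2 1.44 ± 0.16 (adjusted p = 0.00036). Ampd1 was higher by 0.76 ± 0.14 (adjusted p = 0.018), with 27.1, 24.6 and 18.6 TPM on patterned against 15.2, 10.1 and 13.1 TPM on unpatterned gelatin. Ckm had 834, 968 and 853 TPM on patterned against 634, 658 and 626 TPM on unpatterned gelatin, without overlap, and a difference of 0.51 ± 0.13 (95% interval 0.23 to 0.79) that missed the threshold (adjusted p = 0.087). DESeq2 put this Ckm difference past the threshold (adjusted p = 0.018), as did leaving out patterned replicate 1 (adjusted p = 0.032). On plastic at D7 Ckm had 673, 741 and 934 TPM. These overlapped patterned gelatin and lay above all unpatterned libraries. When only the 6 libraries compared were fitted, no gene in all passed, with an adjusted p of 0.21 for Ckmt2 and 0.40 for Ampd1. The Ampd1 call was also lost without unpatterned replicate 1 or 3 or without patterned replicate 2.

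At D4 the same comparison gave 0 of 9 members by edgeR and 0 by DESeq2. Of all genes 0.00674% passed by edgeR, and 1281 genes had an unadjusted p under 0.05, Ckmt2 being the only member among them. Ckmt2 differed by log2 0.42, with a 95% interval of 0.09 to 0.75 (adjusted p = 0.41). With only the compared groups in the fit, edgeR called 71 genes at D4, and DESeq2 called 140, with 0 members in either. Whether the effect of grooves differed between D7 and D4 was tested directly. Ckmt2 gave a difference of 1.02 ± 0.22 and Ampd1 of 0.51 ± 0.20, both with an adjusted p of 0.66, in a test that called no gene by edgeR (0.00% of 14844), with 1064 at an unadjusted p under 0.05. DESeq2 called Ckmt2 there (adjusted p = 0.030), 1 of 5 genes it called.

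Against plastic, 2 of 9 members were higher on patterned gelatin at D4, where 3.55% of all genes passed (2.10% higher, 1.46% lower), and 3 of 9 at D7, where 23.8% passed (12.9% higher, 10.9% lower). Ckmt2 was higher by log2 1.36 ± 0.16 at D4 (adjusted p = 0.00019) and was 5.76-fold higher at D7 (adjusted p = 3.6e-08). The Ckmt2 difference grew between the days by 1.17 ± 0.23 (adjusted p = 0.021), in a test that called 11.7% of all genes (6.24% higher, 5.50% lower). That call was lost without D4 plastic replicate 2 or without D4 patterned replicate 1, where 2 and 8 genes in all were called. Ampd1 was higher by 0.71 ± 0.14 at D7 (adjusted p = 0.0032). At D4 its difference was 0.56 ± 0.14 (adjusted p = 0.036), and this call was lost when any 1 of the 6 libraries was left out. Gamt was higher on patterned gelatin at D7 by 0.40 ± 0.11 (adjusted p = 0.017), with overlapping TPM of 60.6, 70.2 and 51.7 against 40.9, 50.8 and 54.4 on plastic. The Gamt call was lost without plastic replicate 1 or 2 or patterned replicate 2. Without plastic replicate 3, Ckm (0.41, adjusted p = 0.045) and Ak1 (0.24, adjusted p = 0.043) were called there too, and without plastic replicate 2 Slc6a8 was (0.25, adjusted p = 0.034). With only the 6 libraries of D7 in the fit, Ckmt2 was the only member called (adjusted p = 0.0049).

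Unpatterned gelatin against plastic gave 1 of 9 members on each day, Ckmt2 both times, where 7.89% of all genes passed at D4 (4.02% higher, 3.87% lower) and 3.46% at D7 (2.49% higher, 0.977% lower). Its difference was log2 0.94 ± 0.17 at D4 (adjusted p = 0.0047) and 1.08 ± 0.17 at D7 (adjusted p = 0.0015). The D7 call was lost with only those 6 libraries in the fit (adjusted p = 0.060). In the edgeR fit of all C2C12 libraries with TMM scaling, Ckb, Ak1, Slc6a8 and Ampd3 passed the test in none of the 6 substrate comparisons, with differences of -0.20 to 0.23. Ckm and Gatm passed in none of them either. With an offset for transcript length Ampd3 was called for patterned gelatin against plastic at D7 (0.47, adjusted p = 0.028). With only the compared groups in the fit, Ckb (-0.20, adjusted p = 0.024) and Ckm (0.20, adjusted p = 0.045) were called for patterned gelatin against plastic at D4. In that fit Slc6a8 (-0.18, adjusted p = 0.037) and Gatm (0.28, adjusted p = 0.026) were called for unpatterned gelatin against plastic at D4, and DESeq2 called Gatm there too (0.29, adjusted p = 0.039).

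**Figure D3:**
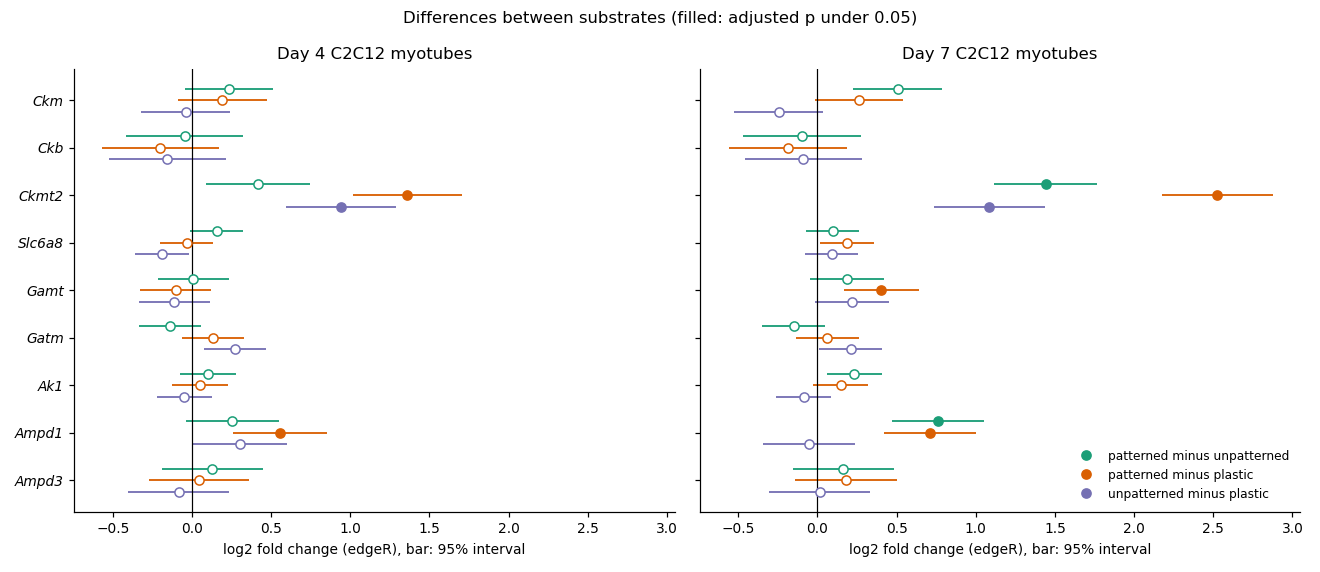
Log2 fold change of the 9 tested members between substrates at D4 (left) and D7 (right), with 95% intervals from the edgeR fit to 21 C2C12 libraries and filled points where the adjusted p is under 0.05. Ckmt2 has 5 filled points and Ampd1 3, and Gamt has 1, for patterned gelatin against plastic at D7.

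The myotube marker sum was 18736 to 19626 TPM on plastic, 18888 to 20981 TPM on unpatterned and 20602 to 20809 TPM on patterned gelatin at D4. At D7 it was 21317 to 26248, 20485 to 22153 and 23102 to 24642 TPM in the same order. Per 10000 TPM of that sum, Ckmt2 averaged 2.66, 5.44 and 7.05 TPM at D4 and 2.50, 5.45 and 12.8 TPM at D7 on plastic, unpatterned and patterned gelatin. The means thus kept the same order of substrates against the markers. The summed fibroblast markers (Pdgfra, Dcn, Col1a1 and Lum) were 83.4 to 136 TPM on plastic and 148 to 167 TPM on patterned gelatin at D7, with Lum at or near 0. The cycling markers (Mki67, Top2a and Ccnb1) were 40.6 to 82.2 TPM on plastic and 31.4 to 44.9 TPM on patterned gelatin at D7. Their part in these differences was not tested.

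With the rise of Ckmt2, the mitochondrial share of creatine kinase TPM averaged 0.570%, 1.11% and 1.30% at D4 and 0.655%, 1.48% and 2.98% at D7 on plastic, unpatterned and patterned gelatin. The D7 patterned libraries had 2.84%, 3.12% and 2.98%, above every other C2C12 library. The exact permutation test gave p = 0.1, its smallest value, for each comparison of substrates (adjusted p = 0.11). Ckm still held 85.4% to 86.0% of the sum in those libraries. The same 3 libraries had 1.93%, 1.78% and 0.90% of their counts from the mitochondrial genome, against 2.05% to 4.31% in the other C2C12 libraries. Replicates 2 and 3 were also the shallowest of the series, at 16.8 and 13.1 M, with 16720 and 16692 genes detected. With any 1 of the 3 left out, Ckmt2 was still higher on patterned than on unpatterned gelatin at D7, by 1.37 to 1.55. The part of depth and of the mitochondrial genome share in these values was not tested.

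In primary cells Ckmt2 and Ampd1 again passed the filter through the later libraries. Of the other 7 members tested, 5 rose from D0 on plastic to D4 on patterned gelatin and none fell by edgeR, where 20.2% of all 14352 genes rose and 22.4% fell (42.6% in either direction). Ckm had 3.00, 4.16 and 0.85 TPM in cultures 1, 2 and 3 at D0 and 283, 392 and 80.6 TPM at D4. It rose by log2 6.61 ± 1.39 (adjusted p = 0.0051). Culture 3 was lowest at both days, and without it the rise was 6.65 (adjusted p = 8.5e-07).

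Ckb rose in the primary cells from 48.8, 57.0 and 44.6 TPM to 138, 134 and 155 TPM, by log2 1.59 ± 0.28 (adjusted p = 0.0021). Ckmt2 had 0.37, 0.37 and 0.08 TPM at D0 and 19.5, 25.6 and 7.25 TPM at D4. Its counting ratio was 60.7 (95% interval 38.2 to 103), from 18 counts at D0. All D4 libraries were above all D0 libraries for both genes.

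Gatm rose in the primary cells, from 55.7, 49.8 and 52.3 TPM to 175, 207 and 105 TPM, by log2 1.68 ± 0.21 (adjusted p = 0.00034). In C2C12 it fell over the same days on plastic, on another substrate, and the difference between the cell types in this change was not tested. Gamt rose by 1.32 ± 0.30 (adjusted p = 0.0069), from 36.1 to 47.3 TPM at D0 to 74.8 to 111 TPM at D4. Slc6a8 changed by 0.27 (95% interval -0.04 to 0.59, adjusted p = 0.14).

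Ak1 rose in the primary cells by log2 0.66 ± 0.15 (adjusted p = 0.0075), from 389, 458 and 342 TPM to 455, 571 and 543 TPM, with culture 1 at D4 just below culture 2 at D0. Ampd1 went from 0.08 to 0.71 TPM at D0 to 12.4, 23.4 and 1.91 TPM at D4, the last in culture 3, with a counting ratio of 84.4 (95% interval 48.1 to 164). Ampd3 went the other way, from 85.6, 93.7 and 80.9 TPM to 26.7, 26.5 and 59.3 TPM, so every D4 library was below every D0 library. Its change of -1.04 ± 0.43 missed the threshold (adjusted p = 0.081). Without culture 3 the 5 genes that rose all stayed past the test, with rises from 0.55 (Ak1, adjusted p = 0.012) to 6.65 (Ckm). With the replicate number as a block Ampd3 was called at -1.21 (adjusted p = 0.0079), and without culture 3 at -1.57 (adjusted p = 5.4e-06).

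From D4 to D7 in primary cells on patterned gelatin, edgeR called 0 of 9 members and no gene at all (0.00%), with 666 genes at an unadjusted p under 0.05, of which Ckb was the only member. DESeq2 called 0 members and 58 genes. In the libraries numbered 1, 2 and 3, Ckmt2 had 19.5, 25.6 and 7.25 TPM at D4 and 77.0, 85.7 and 7.25 TPM at D7. Its change was log2 1.71 (95% interval -0.03 to 3.46, adjusted p = 1). Without culture 3 it was 1.90 (adjusted p = 0.0048), among 124 genes called. Ckb had 138, 134 and 155 TPM at D4 and 94.6, 67.7 and 38.2 TPM at D7, without overlap. Its change of -1.10 ± 0.28 did not pass (adjusted p = 0.83).

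Among these genes, culture 3 lay farthest below cultures 1 and 2 for Ckm, Ampd1 and Ckmt2, which had risen most from D0 to D4. At D7 its Ckm level was 14.1 TPM, against 777 and 574 TPM, or 48.0 times below their mean. Ampd1 was 21.6 times below, at 1.32 TPM against 31.4 and 25.7 TPM, and Ckmt2 11.2 times below. The myotube marker sum was 1.95 times below, and its genes differed. Myh3 had 321 TPM in culture 3 against 2085 and 1715 TPM, and Myh8 198 against 1166 and 1315 TPM. Mymk had 1403 TPM against 1374 and 1473 TPM, and the other markers were lower in culture 3 than in both. Ampd3 was higher in culture 3, with 68.3 TPM against 29.9 and 27.6 TPM. Ak1 was close, with 558 TPM against 601 and 630 TPM. At D0 the library numbered 3 had 4.21 times less Ckm and 4.32 times less Ckmt2 than the mean of the others, at levels under 5 TPM. The part of this culture's lower markers in these values was not tested.

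**Figure D4:**
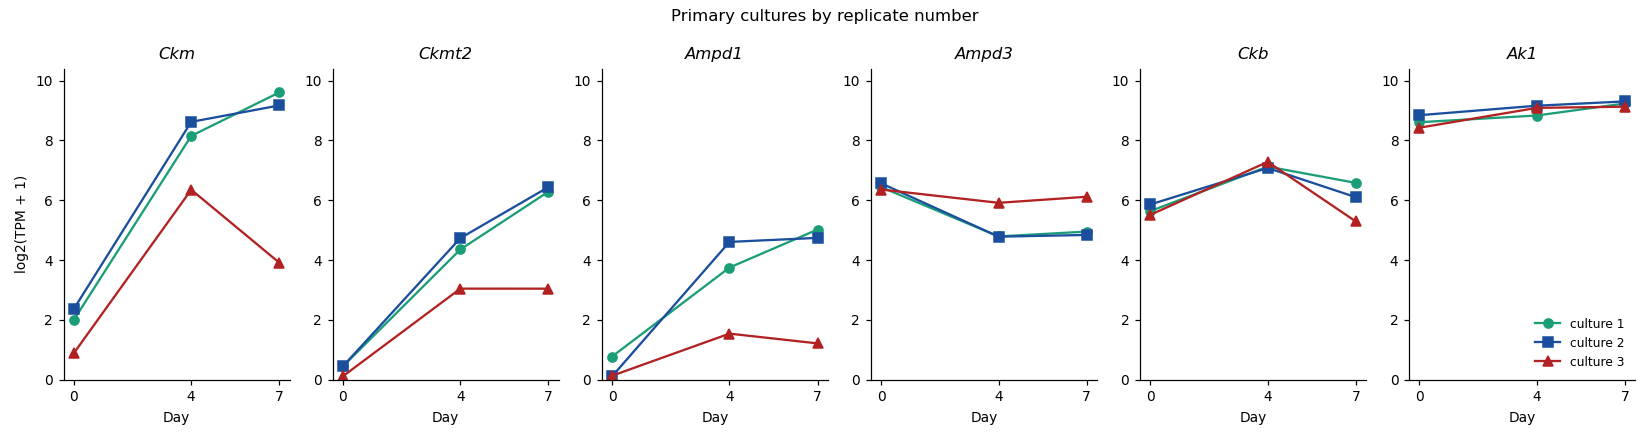
Level of 6 genes in the 3 primary cultures at days 0, 4 and 7, as log2(TPM + 1), with lines joining libraries of the same number. Culture 3 (triangles) lies below the others for Ckm, Ckmt2 and Ampd1 at D4 and D7, above them for Ampd3, and with them for Ak1.

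The Ckm share of creatine kinase TPM in primary cells was 5.71%, 6.74% and 1.86% at D0 and 64.1%, 71.1% and 33.2% at D4. At D7 it was 81.9%, 78.9% and 23.5%. The mitochondrial share was 8.12%, 11.8% and 12.6% at D7, above the 2.84% to 3.12% of D7 C2C12 on patterned gelatin in every culture. The exact two-sided permutation test of that difference gave its smallest p, 0.1 (adjusted p = 0.11). In culture 3 the summed creatine kinase level at D7 was only 59.7 TPM. The Ckmt2 level there, 7.25 TPM, lay below the 27.5 to 35.0 TPM of D7 C2C12 on patterned gelatin.

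Primary cells and C2C12 were compared at the same day and, at D4 and D7, on the same patterned gelatin. The cell source also carries its preparation and history, which cannot be told apart from cell type. At D0, 5 of 9 members differed (3 higher, 2 lower in primary cells), against 57.5% of all 15447 genes (29.6% higher, 27.9% lower). At D4 it was 4 of 9 (2 higher, 2 lower) against 50.6% (25.7% higher, 25.0% lower). At D7 it was 4 of 9 (2 higher, 2 lower) against 51.5% (25.0% higher, 26.4% lower). These shares of the members are near those of all genes.

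Ak1 was higher in primary cells at every day, by log2 2.02 ± 0.11 at D0 (adjusted p = 1.7e-13), 0.82 ± 0.11 at D4 (adjusted p = 8.8e-07) and 0.77 ± 0.11 at D7 (adjusted p = 1.8e-06). The TPM of the cell types did not overlap on any of these days. Gatm was lower in primary cells at D0 by log2 1.05 (-1.05 ± 0.15, adjusted p = 2.5e-06). It was higher at D4 by 0.80 ± 0.15 (adjusted p = 0.00011) and at D7 by 1.05 ± 0.15 (adjusted p = 3.4e-06). Slc6a8 was higher in primary cells at D0 by 0.40 ± 0.10 (adjusted p = 0.0014). It was lower at D4 (-0.33 ± 0.10, adjusted p = 0.0070) and at D7 (-0.42 ± 0.10, adjusted p = 0.0010), and both later calls were lost with a correction for transcript length. The D4 call was also lost without C2C12 replicate 2. Without culture 3 all calls of Ak1, Gatm and Slc6a8 held.

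Ckm and Ckb were lower in primary cells where they were called. Ckm was lower at D0 (-2.98 ± 0.77, adjusted p = 0.0020) and at D4 (-1.76 ± 0.66, adjusted p = 0.029). Without culture 3 these differences were -2.55 and -1.34 (adjusted p = 2.2e-09 and 1.8e-06). At D7 the difference of -0.86 had a 95% interval of -2.19 to 0.47 and did not pass (adjusted p = 0.27). The D4 call was also lost without any 1 of the C2C12 libraries or without primary culture 1 or 3 of that day, each left out singly. Ckb was lower at D7 (-0.69 ± 0.23, adjusted p = 0.015), a call lost without culture 3 (-0.38, adjusted p = 0.12), without primary culture 2 or without C2C12 replicate 2. Ampd3 was the AMP deaminase that differed at D0. It was higher in primary cells by 1.74 ± 0.29 (adjusted p = 1.6e-05), with 80.9 to 93.7 TPM against 23.6 to 33.5 TPM, a call that held without culture 3. At D4 and D7 it differed by 0.66 and 0.55 (adjusted p = 0.057 and 0.11), and without culture 3 by 0.15 and 0.04. Leaving out culture 1 or 2 instead brought it past the test at both days, at 0.90 or 0.87 at D4 and 0.82 or 0.83 at D7.

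Culture 3 decided the comparison for Ckmt2, Ampd1 and Gamt. Ckmt2 differed by log2 0.41 at D4 and 0.98 at D7, with adjusted p of 0.49 and 0.083. Without culture 3 it was higher in primary cells at D4 by 0.77 (adjusted p = 0.00034) and at D7 by 1.54 (adjusted p = 2.1e-08). At D0 it was too sparsely counted for a fold, with 2 estimated counts in C2C12 and 18 in primary cells. Ampd1 differed by 0.38 and 0.25 with all cultures (adjusted p = 0.62 and 0.75). Without culture 3 it was higher by 0.89 (adjusted p = 0.00059) and 0.83 (adjusted p = 0.00091). Gamt differed by -0.19, 0.14 and 0.23 at D0, D4 and D7 with all cultures (adjusted p = 0.45, 0.59 and 0.36). Without culture 3 it was lower in primary cells at D0 (-0.38, adjusted p = 0.044) and higher at D7 (0.49, adjusted p = 0.0087), and at D4 the difference was -0.04 (adjusted p = 0.85). Whether the change from D4 to D7 differed between the cell types was also tested, and 0 of 9 members passed by edgeR and by DESeq2, against 0.770% of all genes by edgeR. None of the 9 had an unadjusted p under 0.05 there. Without culture 3 Ckm was called (1.08, adjusted p = 0.019), among 611 genes against 119 with all cultures.

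The order of levels over the 10 groups set these genes apart. Ckm was highest in C2C12 at D4 and D7 on patterned gelatin (means of 949 and 885 TPM), which overlapped each other, and lowest in D0 C2C12 (22.2 TPM) and D0 primary cells (2.67 TPM). These D0 groups did not overlap each other, and among the myotube groups D7 primary cells alone reached their range, through culture 3. Ckmt2 was highest in D7 primary cells (56.6 TPM, range 7.25 to 85.7) and next in D7 patterned C2C12 (30.7 TPM), which overlapped. Ak1 ran from 105 TPM in D0 C2C12, apart from all others, to 596 TPM in D7 primary cells, which overlapped D4 primary cells. Ampd3 was highest in D0 primary cells, at 86.8 TPM, and its other 9 groups, with means of 24.2 to 42.0 TPM, each overlapped the next in order. Slc6a8 varied least of the detected members, from 41.2 to 93.9 TPM, and every neighbouring pair of its groups overlapped.

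Ak1 differed between days by transcript as well as by level. Kallisto divides reads that fit several transcripts by likelihood, so these values rest on the stretches that the 6 Ak1 transcripts do not share. Ak1-202, whose annotated start at chr2:32625437 is the start site of the Ak1 window with the MEF2 match, had 36.8 ± 5.08 TPM (SD, n = 3) at D0 in C2C12 and 223 ± 10.3 TPM at D4 on plastic, a ratio of 6.07. Ak1-201, which starts at chr2:32629504, had 45.8 ± 2.73 and 43.4 ± 3.80 TPM in the same groups, which overlapped. The Ak1-202 share of the gene was 33.5% to 35.9% at D0 and 74.0% to 74.9% at D4 on plastic. The exact permutation test gave p = 0.1 for the level and the share of Ak1-202 and p = 0.5 for the level of Ak1-201.

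At D4 the Ak1-202 share was 74.4%, 74.5% and 74.8% on plastic, unpatterned and patterned gelatin, with all groups overlapping. At D7 it was lower, at 65.2%, 64.5% and 64.8%. Ak1-201 went from 43.4 to 84.1 TPM on plastic and from 44.4 to 81.3 TPM on unpatterned gelatin, both without overlap (exact permutation p = 0.1 for each, adjusted p = 0.375). On patterned gelatin it went from 50.1 to 71.1 TPM, with overlap (exact permutation p = 0.2, adjusted p = 0.5). In primary cells Ak1-202 went from 173 ± 6.35 TPM at D0 to 442 ± 76.2 TPM at D4, and Ak1-201 from 144 ± 34.2 to 46.0 ± 16.0 TPM, without overlap in either (exact permutation p = 0.1 for each).

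**Figure D5:**
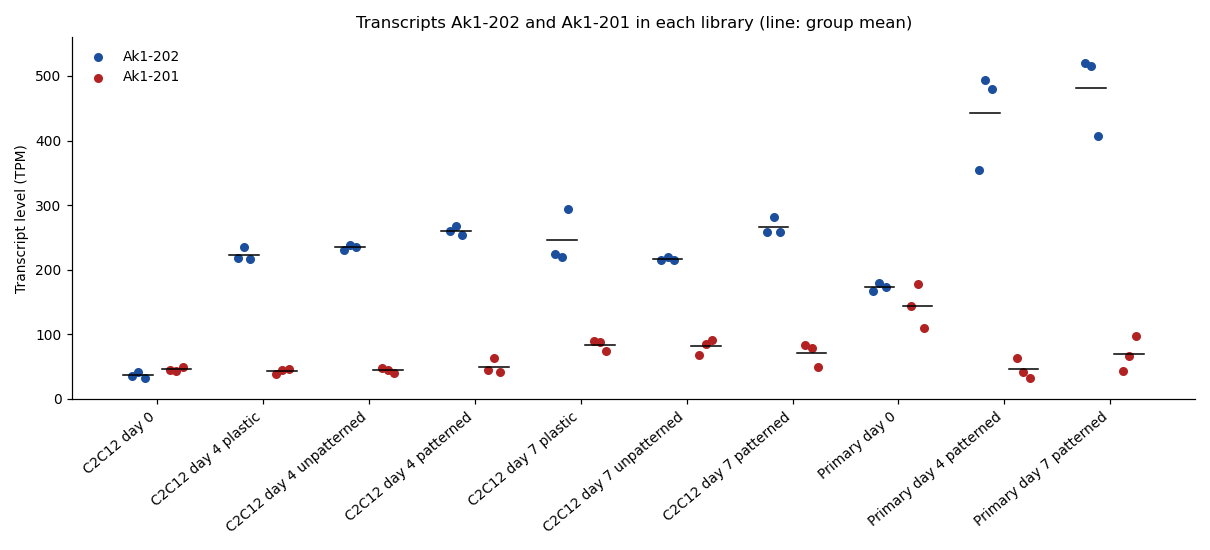
TPM of Ak1-202 and Ak1-201 in each library by group, with a line at each group mean. Ak1-202 is at 32.8 to 42.5 TPM in D0 C2C12 and at 215 TPM or more in every C2C12 myotube library, while Ak1-201 stays under 100 TPM in all groups but D0 primary cells.

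Of 35 other genes of adenylate kinase, purine nucleotide cycle, mitochondrial exchange, AMP-activated kinase and purine salvage, 33 were tested. From D0 to D4 on plastic, 14 rose and 10 fell in C2C12, where 30.2% of all genes rose and 27.7% fell. From D0 to D4 on patterned gelatin, 10 rose and 3 fell in primary cells, where 20.2% of all genes rose and 22.4% fell. These counts include Ak5 and Ak8 in C2C12 and Ak8 in primary cells, which were near 0 at D0. In the purine nucleotide cycle the muscle adenylosuccinate synthase Adssl1 rose by log2 3.49 (adjusted p = 1.5e-13) while Adss, the form of other tissues, fell by 1.97 (-1.97, adjusted p = 3.4e-14). In primary cells the same pair changed by 2.46 and -2.10 (adjusted p = 9.6e-06 and 0.00033). Ampd2, the AMP deaminase of non-muscle tissues, fell in C2C12 by 0.53 (-0.53, adjusted p = 0.00035). In AMP-activated kinase, the energy sensor, the muscle subunit gene Prkag3 rose by 4.66 in C2C12 and 4.55 in primary cells (adjusted p = 2.5e-17 and 2.5e-05). Prkaa2 rose by 3.43 and 2.74 (adjusted p = 5.0e-12 and 0.0010). From D4 to D7 in C2C12 Prkag3 rose again, by 0.48, 0.46 and 0.60 on plastic, unpatterned and patterned gelatin (adjusted p = 0.0011, 0.0048 and 0.00031). Among the adenylate kinases, Ak5 and Ak8 were near 0 in C2C12 at D0 and, like Ampd1, are given without a test. In C2C12 Ak5 averaged 0.40 TPM at D0 and 2.07 TPM at D4 on plastic, and Ak8 0.16 and 1.08 TPM. Ak4 fell over the same days by 0.77 (-0.77, adjusted p = 0.0011). In primary cells Ak5 went the other way, by -1.80 (adjusted p = 0.016). Ak8 in primary cells averaged 0.42 TPM at D0 and 1.27 TPM at D4, again without a test. The mitochondrial outer membrane channel gene Vdac2 rose by 0.46 in C2C12 and 0.42 in primary cells (adjusted p = 8.0e-06 and 0.045). The salvage genes Ada, Aprt and Pnp fell in C2C12 by 2.01, 0.95 and 1.27, which belongs to 5 of 9 tested salvage genes that fell and 1 that rose.

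Between substrates few of these 33 passed: 0 for patterned against unpatterned gelatin at D4 and 1 (Prkag3, log2 0.49, adjusted p = 0.014) at D7. Of all genes 0.00674% passed there at D4 and 0.546% at D7. Against plastic, patterned gelatin gave 2 higher at D4, where 2.10% of all genes were higher and 1.46% lower. At D7 it gave 7 higher and 4 lower, where 12.9% of all genes were higher and 10.9% lower. Ak4, an adenylate kinase of the mitochondrial matrix, was higher on gelatin in all 4 comparisons with plastic. It differed by 1.67 and 2.21 on patterned gelatin at D4 and D7 (adjusted p = 4.8e-05 and 5.9e-07), and by 1.88 and 2.21 on unpatterned gelatin (adjusted p = 5.9e-06 and 6.3e-07). For Ak4 the patterned-to-unpatterned difference was -0.21 at D4 and 0.00 at D7, where Ckmt2 gave 0.42 and 1.44.

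The genes whose group means tracked each member most closely were taken from 5313 genes, by Pearson correlation of log2 CPM over the 10 groups. For Ampd1 they were Casq1 (r = 0.997), Syngr1 (0.996) and Myl1 (0.995). For Ckm they were Dyrk2 (r = 0.995), Tfeb (0.994) and Gm45837 (0.994). For Ckmt2 they were Ndufv1, Pdpr and Colq (r of 0.983 to 0.984), and for Ak1 Hk2, Uqcc1 and Mettl22 (0.990 to 0.992). For Ampd3 they were Blcap, Zmat3 and Mfsd4b4 (r of 0.982 to 0.992), and for Slc6a8 Csdc2, Sbk1 and Synpo2 (0.972 to 0.982). Ckb had Fzd2, Spire2 and Hspa2 (r of 0.920 to 0.943), Gatm had Agap1, Daam1 and Tceal8 (0.862 to 0.939), and Gamt had Tmem120b, Pbx3 and Rab3a (0.826 to 0.834). The groups share the step from D0 to myotubes, so these values describe 10 points and carry no test.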

How the data were processed

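Libraries were prepared from total RNA with a NEBNext kit. The authors deposited, per library, Kallisto expected counts (estimated counts) and TPM of each transcript; the labels name mm10, and no source used here gives the Kallisto version. Of 88198 transcripts, 86031 matched GENCODE M21 and were summed to 30205 genes, leaving 0.723% to 0.893% of counts out. Rounded sums were tested in R 4.3.3 with edgeR 4.0.16 (TMM, filterByExpr, quasi-likelihood F test, Benjamini-Hochberg adjustment over all tested genes, threshold 0.05), in separate fits of the 21 C2C12 libraries, the 9 primary libraries and, between cell types, all 30. The SE is the size of the log2 fold change over the root of F. Shares were tested with scipy 1.17.1. Scripts were tested on simulated data. All members are named in every comparison they pass. Other pathway genes past the test could be named, at most 3 a list by smallest adjusted p. Likeness used genes with a mean log2 CPM of at least 3 and a range over groups of at least 1. Members, lists and tests were chosen with earlier results of these data known, and leaving out primary culture 3 was chosen after seeing the data. Same-numbered primary libraries deviated together (correlations 0.206 to 0.778 over 9 pairs, against -0.646 to 0.381 for different numbers). Of the 9 primary libraries, 8 were closest to their own number, and the main primary fit did not use this pairing. The replicate number was used as a block in an alternative for both cell types. It was not used where primary cells and C2C12 were compared at the same day. The other alternatives were DESeq2 1.42.0, its type of size factors, no filter, an offset for transcript length, a fit to the compared groups only, and leaving out each library.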

Additional observations from a re-analysis of the deposited data

Results flagged for a closer look

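Ckmt2 was flagged because the difference between patterned gelatin and plastic was not the same at D4 and D7 in C2C12: it was larger at D7 by 1.17 ± 0.23 on the log2 scale (adjusted p = 0.021), from 1.36 at D4.

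Gamt was flagged by the same test, with a difference between the days of 0.51 ± 0.16 (adjusted p = 0.043), from -0.10 at D4 to 0.40 at D7. The Gamt call was lost in 13 of the alternatives, among them the fits that each left out 1 of the 6 libraries of D4.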

How the results depend on the processing

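Of 48 member results past the test, 35 stayed past it in the same direction under every alternative run. The other 13 were lost under 1 or more, none reversed, and the cause was not tested. Both the 48 and the 35 include Ckmt2 and Ampd1 from D0 to D4 in C2C12 and in primary cells, which had to differ. The counts of members past the test that moved by over 1.5 times follow. In a fit to the compared groups only, patterned against unpatterned gelatin at D7 gave 0, patterned against plastic 4 at D4 and 1 at D7, unpatterned against plastic 3 at D4 and 0 at D7, and the change of the patterned-to-plastic difference between days 1. That last count was also 1 without a filter and 1 with a length offset, and patterned against plastic at D4 was 1 without a filter. DESeq2 gave 2 for unpatterned against plastic at D4 and 1 for the change of the pattern effect between days. Without primary culture 3, D4 to D7 in primary cells gave 1, and its difference from C2C12 gave 1 (Ckm, 1.08, adjusted p = 0.019). With single libraries left out, counts ran from 1 to 3 for patterned against unpatterned gelatin at D7, 1 to 1 for patterned against plastic at D4, 2 to 5 at D7, 2 to 5 for primary cells against C2C12 at D4 (2 without C2C12 replicate 2), and 0 to 2 for the change of the patterned-to-plastic difference.

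Over all genes, the groups-only fit called 2413 in place of 527 for patterned against plastic at D4, 21 in place of 3537 at D7, 0 in place of 81 for patterned against unpatterned gelatin at D7, 3223 in place of 1171 for unpatterned against plastic at D4, and 70 in place of 514 at D7. It called 224 in place of 3016 from D4 to D7 on patterned gelatin, 193 in place of 1744 for the change of the patterned-to-plastic difference, and 4676 in place of 7948 for primary cells against C2C12 at D7. For patterned against unpatterned gelatin at D4 it called 71 in place of 1. The difference of primary cells from C2C12 in the D4 to D7 change gave 6 in place of 119 in that fit. DESeq2 called 140 in place of 1 for patterned against unpatterned gelatin at D4, 489 in place of 81 at D7, 1006 in place of 527 for patterned against plastic at D4, 1812 in place of 1171 for unpatterned against plastic at D4, 952 in place of 514 at D7, 721 in place of 434 from D4 to D7 on unpatterned gelatin, 2682 in place of 1744 for the change of the patterned-to-plastic difference, and 447 in place of 119 for the difference of primary cells from C2C12 in the D4 to D7 change. With the length offset, the counts were 208 for patterned against plastic at D4, 561 for unpatterned against plastic at D4, 259 from D4 to D7 on unpatterned gelatin and 898 for the change of the patterned-to-plastic difference. Without a filter, patterned against plastic at D4 gave 343. The difference of primary cells from C2C12 in the D4 to D7 change gave 43 without a filter and 79 with the length offset. With a replicate block, patterned against unpatterned gelatin gave 12 at D4 and 145 at D7, and the difference of primary cells from C2C12 in the D4 to D7 change gave 674.

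C2C12 libraries of the same number did not deviate together (correlations -0.187 to 0.223, 7 of 21 closest to their own number). A replicate block there brought Ckb past the test from D4 to D7 on plastic (-0.51, adjusted p = 0.040) and on patterned gelatin (-0.47, adjusted p = 0.047). In primary cells the block changed the Ampd3 call and no other. From D0 to D4 it called 8277 genes there in place of 6116. Depth limits Ckmt2 and Ampd1 at D0 and Ckmt1 throughout.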
